A study of Mus musculus with 10 samples.

Results

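The genes described here carry the signal of IL-22 and of related cytokines from the cell surface to the nucleus. They are 10 genes taken by name: the receptor genes Il22ra1, Il10rb, Il6st and Osmr, the kinase genes Jak1 and Tyk2, the transcription factor gene Stat3, and Socs3, Bcl3 and Pim1, which STAT3 is known to induce. All 10 were among the 24062 genes counted in the pancreas of newborn mice, and all 10 had at least 5 counts in every library, as did 13882 genes in all. The mice came in 2 groups of 5, WT and KSR23, both C57BL/6 and both taken at P5 (postnatal day 5). KSR23 mice carry an IL-23 cassette in the ROSA26 locus that cre recombinase switches on, together with cre driven by the keratin 14 promoter, so that keratinocytes, the main cells of the epidermis, make IL-23. WT mice were labelled as wild type. The comparison asks how the pancreas of the neonate differs in mice that make IL-23 in this way, and each library held the RNA of the whole organ of 1 mouse. Message of Il23a, a gene of the cassette, was low but also higher in the pancreas of the KSR23 mice, as given below.

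IL-22 is a cytokine of lymphoid cells that acts on epithelia, because Il22ra1, the chain that gives a cell its response to IL-22, is made mainly by epithelial cells. IL-22 binds a receptor of Il22ra1 and the widely expressed Il10rb chain, the kinases JAK1 and TYK2 bound to these chains phosphorylate STAT3, and STAT3 enters the nucleus and turns on its targets. The IL-6 family reaches the same factor through gp130, the product of Il6st, which pairs with the product of Osmr to form the receptor for oncostatin M. SOCS3 closes the loop by binding the receptor and the kinases and damping the signal. In the pancreas, acinar cells are known as responders to IL-22.

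STAT3 binds DNA as a dimer at sites with the letters TTCNNNGAA, where N is any base, and the promoters of the members were searched for these letters. The search covered the 250 bases before each start given by RefSeq on GRCm38.p6, and because the letters read the same on both strands, 1 search covers both. Of the 10 members, 9 had a RefSeq promoter entry and 1, Socs3, held the letters, with the first base 154 bases before the start. Of all 32851 promoter windows, 7.02% held them, and of the 27025 genes with such a window, 8.13% did. The windows of Socs3, Bcl3 and Stat3, the members with the smallest adjusted p, are shown 5′ to 3′ on the minus strand so that they can be compared. Each is printed from its 5′ end up to the first annotated exon met, where there is one. The Socs3 stretch holds 165 of the 250 bases and so ends before the start from which the 154 bases are counted. They lie at chr11:117969452-117969616 for Socs3, chr11:100939541-100939790 for Stat3 and chr7:19822771-19823005 for Bcl3, and the capitals mark the TTCNNNGAA letters. The Socs3 stretch lies inside the gene as GENCODE draws it, in no annotated exon, and the other 2 lie directly before their genes.
Socs3: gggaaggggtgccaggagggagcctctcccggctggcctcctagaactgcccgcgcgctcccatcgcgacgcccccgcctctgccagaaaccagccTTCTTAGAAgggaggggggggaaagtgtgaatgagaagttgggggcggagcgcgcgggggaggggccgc
Stat3: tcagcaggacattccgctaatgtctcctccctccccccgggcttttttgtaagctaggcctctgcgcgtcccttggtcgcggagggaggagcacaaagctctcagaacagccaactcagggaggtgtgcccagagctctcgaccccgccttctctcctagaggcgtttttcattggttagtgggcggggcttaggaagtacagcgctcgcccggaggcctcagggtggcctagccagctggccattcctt
Bcl3: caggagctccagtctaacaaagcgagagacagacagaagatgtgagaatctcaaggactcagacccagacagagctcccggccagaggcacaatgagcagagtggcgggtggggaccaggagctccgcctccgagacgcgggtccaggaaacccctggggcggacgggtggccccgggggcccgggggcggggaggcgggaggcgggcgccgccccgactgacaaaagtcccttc
A match in letters is a description and does not show that STAT3 binds there, and a window without the letters says nothing of sites elsewhere.

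Gene counts summed to 26830235 to 33189132 per WT library and to 16715976 to 57784136 per KSR23 library, with KSR23 replicate 3 the smallest. Alignments that were not unique, which are left out of these counts, outnumbered the gene counts in every WT library and in no KSR23 library. Ambiguous reads, which fit several genes, were 1.24% to 1.35% in WT and 0.897% to 1.12% in KSR23 libraries. The part of these differences in the member values was not tested. Levels are given as CPM, counts scaled to a common library size by TMM, a method that leaves the genes that differ most between libraries out of the scale. WT replicates 1 and 2 stood apart from the other WT mice in Reg3b, a secreted antimicrobial lectin that STAT3 is known to induce in acinar cells. Reg3b was at 691 and 729 CPM in WT replicates 1 and 2, and at 14.6, 4.84 and 4.73 CPM in WT replicates 3, 4 and 5. In the KSR23 mice Reg3b lay between 14200 and 29230 CPM. Counts of calls were therefore also taken without these 2 WT mice, a choice made after the values were seen.

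The marker genes of acinar cells, the cells that make digestive enzymes, summed to between 201100 and 224100 CPM in WT mice and between 150200 and 185100 CPM in KSR23 mice, so the genes of pancreatic enzymes were abundant in all 10 libraries. Of the 9 acinar markers, 7 were lower and 1 was higher in KSR23 mice, and of the 6 islet markers 5 were lower and 1 higher. Among all 13882 genes tested, 16.2% were called higher and 14.8% lower. Duct markers were higher for 5 of 6, with sums of 930 to 1043 CPM in WT and 1539 to 1701 CPM in KSR23 mice. All 7 myeloid markers were higher, or 5 without both WT replicates 1 and 2, with sums of 221 to 297 CPM in WT and 269 to 609 CPM in KSR23 mice. Lymphoid markers were sparse, with 4 of 8 tested and sums of 6.16 to 8.13 CPM in WT and 3.57 to 6.25 CPM in KSR23 mice. Of these 4, Cd3e was lower and none was higher, and with no low-count filter 2 of the 8 were higher and 1 lower. Cd3d and Cd8a, both under the filter, had all 5 KSR23 mice above the WT range, and Cd8a was at 0 in 5 libraries, all WT. Of 5 stromal markers 1 was higher and none lower, and of 4 endothelial markers 1 was higher and 2 lower. Without both WT replicates 1 and 2, no stromal marker was called, and 1 endothelial marker was lower and none higher. In that setting 7 acinar markers were lower and none higher. These libraries mix the RNA of all cells of the organ, so fewer cells of a type and less RNA per cell cannot be told apart, and the part of cell composition in the member values was not tested.

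Across the members, 8 of 10 rose in KSR23 mice, none fell, and Il22ra1 and Tyk2 did not pass the test (edgeR's quasi-likelihood test, Benjamini-Hochberg adjusted p under 0.05). Over all 13882 genes 31.0% passed, 16.2% as higher and 14.8% as lower. In 7 members every KSR23 mouse was above every WT mouse, against 10.7% of all genes, and in none was every KSR23 mouse below, against 8.74% of all genes. The median log2 FC was 0.72 over the members and -0.01 over all genes tested. With both WT replicates 1 and 2 left out, 6 members were called higher. With libraries scaled by their totals alone, 72.5% of all calls were higher, against 52.3% with TMM, and 9 members were called higher. The 10 members were chosen with results of these mice known, so these shares describe the members and are no independent evidence of their direction. Il10rb, Il6st and Jak1 rose by a log2 FC of 0.24 to 0.32, Stat3, Pim1 and Osmr by 1.12 to 1.47, and Bcl3 and Socs3 by 2.27 and 2.65, as the plot of the change of each member shows.

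**Figure D1:**
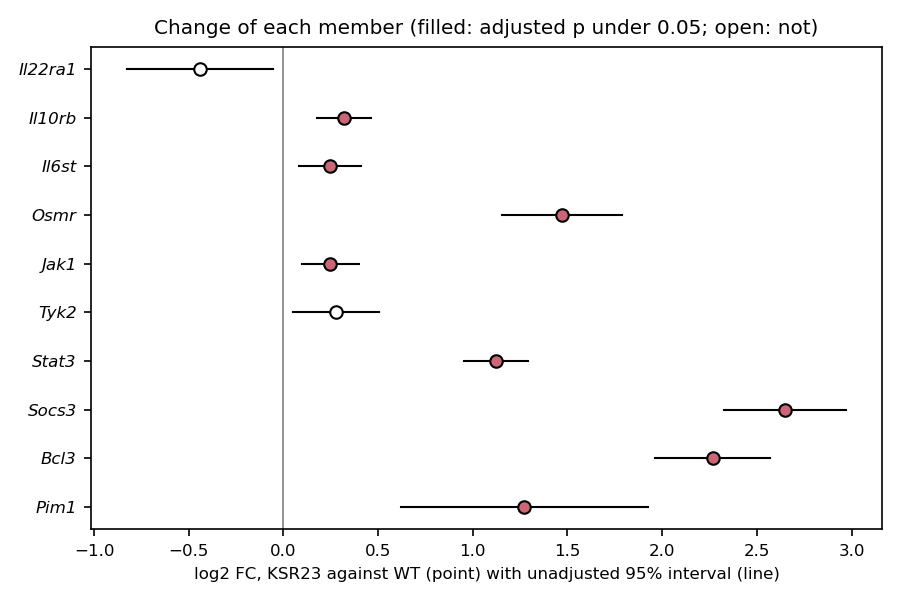
Change of each member between KSR23 and WT mice. Points give the log2 FC (x axis) and lines its unadjusted 95% interval, with n = 5 mice per group, and filled points have an adjusted p under 0.05. Socs3 and Bcl3 lie farthest to the right, at 2.65 and 2.27, and Il22ra1 is the single member with a negative value, at -0.44.

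Il22ra1 (chromosome 4, 135728172 to 135752140, plus strand, GRCm38) was the member that pointed the other way. Its level was 6.58, 7.24, 5.83, 5.87 and 9.61 CPM in WT replicates 1 to 5, and 7.74, 4.03, 4.97, 4.11 and 4.96 CPM in KSR23 replicates 1 to 5. The groups overlapped through KSR23 replicate 1 alone, which lay above 4 of the 5 WT mice, while the other 4 KSR23 mice lay below every WT mouse. The means were 7.02 ± 1.56 and 5.16 ± 1.51 CPM (SD, n = 5 each), and the log2 FC was -0.44 (SE 0.18, adjusted p = 0.0769). The unadjusted 95% interval of the log2 FC ran from -0.83 to -0.05. The two-sided exact permutation test of the CPM values gave p = 0.103. With KSR23 replicate 1 left out the log2 FC was -0.64 with an adjusted p of 0.0069, so whether Il22ra1 was called depended on this mouse.

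Il10rb (chromosome 16, 91406164 to 91425834, plus strand), the chain that IL-22 shares with IL-10 and the type III interferons, rose by little but without overlap. It was at 37.3, 41.7, 38.8, 39.7 and 37.5 CPM in the WT group and at 52.3, 45.4, 45.7, 50.5 and 49.1 CPM in the KSR23 mice. Every KSR23 mouse was above the highest WT mouse, replicate 2. Il10rb had a log2 FC of 0.32 (SE 0.07, adjusted p = 0.00168). Of the 75-base windows of its transcript 72.0% occur in no other annotated gene, because the read-through gene Gm21970 shares 569 of its exon bases, where reads can be lost to its count.

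The ratio of Il22ra1 to Il10rb needs no scaling between libraries, since both counts come from the same one. Its log2 value was -2.50, -2.53, -2.74, -2.76 and -1.96 in the WT group and -2.76, -3.49, -3.20, -3.62 and -3.31 in the KSR23 mice. KSR23 replicate 1 and WT replicate 4 met at nearly the same value, and the other 4 KSR23 mice lay below all WT mice. The means were -2.50 ± 0.32 in WT and -3.28 ± 0.33 in KSR23 mice (SD, n = 5 each), a difference of -0.78 (two-sided exact permutation test, p = 0.0159, and 0.0159 after Benjamini-Hochberg adjustment over 4 ratios). The ratio of the messages of these chains in the whole organ differed between the groups, while Il22ra1 by itself did not pass. Whether the ratio differed within any cell type was not tested.

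The gp130 chain Il6st (chromosome 13, 112464070 to 112510086, plus strand) rose by the least of the members called. It was at 38.9, 43.8, 46.1, 41.1 and 47.1 CPM in the WT group and at 51.6, 48.2, 46.7, 59.0 and 51.3 CPM in the KSR23 mice. KSR23 replicate 3 fell between WT replicates 3 and 5, so the groups overlapped slightly. Its log2 FC was 0.24 (SE 0.08, adjusted p = 0.0233). This call was lost without WT replicate 1 (0.21, adjusted p = 0.0581), WT replicate 4 (0.22, 0.0602) or KSR23 replicate 4 (0.19, 0.0753), and without both WT replicates 1 and 2 (0.20, 0.119).

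Osmr (chromosome 15, 6813577 to 6874969, minus strand), the chain that joins gp130 to receive oncostatin M, had the largest change of the 4 receptor genes among the members. Its WT levels were 4.80, 3.95, 5.54, 3.90 and 4.73 CPM and its KSR23 levels 17.1, 10.7, 11.0, 13.9 and 10.6 CPM. Even the lowest KSR23 mouse, replicate 5, lay well above the highest WT mouse, replicate 3. The log2 FC was 1.47 (SE 0.15, adjusted p = 6.89e-07), a 2.77-fold rise. Within libraries, the log2 ratio of Osmr to Il6st went from -3.25 ± 0.20 in WT to -2.04 ± 0.26 in KSR23 mice, a difference of 1.21 (two-sided exact permutation test, p = 0.00794, adjusted 0.0106). The KSR23 mice thus held more Osmr per gp130 message in every library, with log2 ratios from -2.28 to -1.59 against -3.47 to -3.02 in WT.

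**Figure D2:**
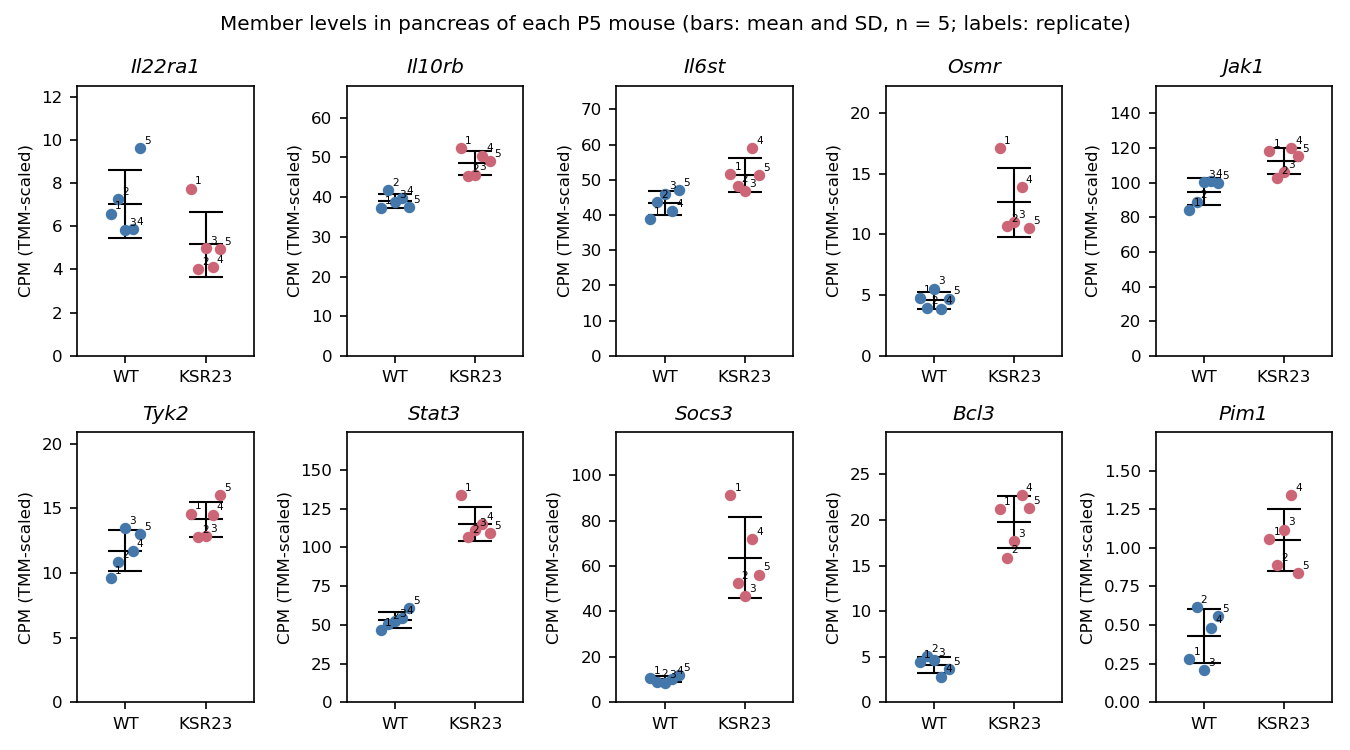
Level of each member in the pancreas of each mouse at P5, in CPM on an axis from 0. Points are mice labelled by replicate, and bars give the mean and SD of each group (n = 5). The groups separate without overlap for Il10rb, Osmr, Jak1, Stat3, Socs3, Bcl3 and Pim1, and KSR23 replicate 1 is the highest KSR23 mouse for Il22ra1, Il10rb, Osmr, Stat3 and Socs3.

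Jak1 (chromosome 4, 101152367 to 101265282, minus strand), the kinase shared by the IL-22, IL-10, interferon and gp130 receptors, was the most abundant member in CPM in WT mice. It was at 84.0, 88.9, 100.2, 101 and 99.7 CPM in the WT group and at 118, 103, 106, 119.9 and 115 CPM in the KSR23 mice. No KSR23 mouse overlapped a WT mouse, though KSR23 replicate 2 and WT replicate 4 were close. The log2 FC was 0.25 (SE 0.07, adjusted p = 0.0132), and without both WT replicates 1 and 2, the lowest WT mice for Jak1, it was 0.17 with an adjusted p of 0.122.

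Tyk2 (chromosome 9, 21104068 to 21131243, minus strand), the kinase bound to Il10rb, was at 9.63, 10.8, 13.5, 11.7 and 12.99 CPM in the WT mice. In the KSR23 mice Tyk2 was at 14.6, 12.8, 12.9, 14.5 and 16.1 CPM. KSR23 replicates 2 and 3 lay among the WT values, and the other 3 KSR23 mice above them. The log2 FC was 0.28 (SE 0.11, adjusted p = 0.0603), with an unadjusted 95% interval from 0.05 to 0.50, and the two-sided exact permutation test gave p = 0.0476. DESeq2 put the adjusted p at 0.0445 and scaling by library totals at 0.0185, so Tyk2 lay at the threshold. An antisense gene, 1700084C06Rik, covers 554 of its exon bases, and as the strand setting of the counting is not given in the sources used here, reads of the pair cannot be told apart.

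Stat3 (chromosome 11, 100885098 to 100939540, minus strand), the factor at the centre of the pathway, rose about equally in all KSR23 mice. It was at 46.5, 50.9, 52.5, 54.7 and 60.6 CPM in the WT group and at 134, 107, 111, 115 and 109 CPM in the KSR23 mice. The groups lay far apart, and apart from KSR23 replicate 1 the KSR23 mice were within a narrow band. The means were 53.0 ± 5.20 and 115 ± 10.9 CPM (SD, n = 5 each). The log2 FC of 1.12 (SE 0.08, adjusted p = 7.31e-09) is a 2.17-fold rise and exceeded in size that of 96.4% of all genes tested. It stayed between 1.04 and 1.22 under all 19 alternative settings. Set against the kinase upstream of it, the log2 ratio of Stat3 to Jak1 went from -0.84 ± 0.08 to 0.03 ± 0.11, a difference of 0.87 (two-sided exact permutation test, p = 0.00794, adjusted 0.0106). In WT mice Stat3 counts were thus below those of Jak1 in every library, whereas in KSR23 mice the counts of the pair were close.

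Socs3 (chromosome 11, 117966079 to 117970047, minus strand), the feedback inhibitor whose promoter is printed here, had the largest change of the members. Its counts were 306, 267, 249, 324 and 318 in the WT libraries and 3632, 1772, 838, 2881 and 3152 in the KSR23 libraries. In CPM these are 10.7, 9.16, 8.74, 10.5 and 11.8 in WT and 91.3, 52.5, 46.8, 71.7 and 56.3 in KSR23 mice. The WT mice were tightly grouped and the KSR23 mice were all far above them, with KSR23 replicate 1 highest and KSR23 replicate 3 lowest. The means were 10.2 ± 1.25 and 63.7 ± 18.0 CPM (SD, n = 5 each), and the log2 FC was 2.65 (SE 0.15, adjusted p = 3.8e-10), a 6.27-fold rise that exceeded in size 99.7% of all genes. WT replicates 1 and 2, which stood apart in Reg3b, did not stand apart in Socs3. For Stat3 they were the lowest WT mice, at 46.5 and 50.9 CPM against 52.5 to 60.6 CPM in the other WT mice. Without both, the log2 FC of Stat3 was 1.04.

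Socs3 rose by more than Stat3. The log2 ratio of Socs3 to Stat3 was -2.12, -2.47, -2.59, -2.39 and -2.36 in the WT group and -0.55, -1.03, -1.25, -0.68 and -0.96 in the KSR23 mice. No KSR23 mouse overlapped a WT mouse, and the difference was 1.49 (p = 0.00794 in a two-sided exact permutation test, which is the least that 5 mice against 5 can give, and 0.0106 adjusted over 4 ratios). The plot of the ratios shows this pair with the widest gap.

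**Figure D3:**
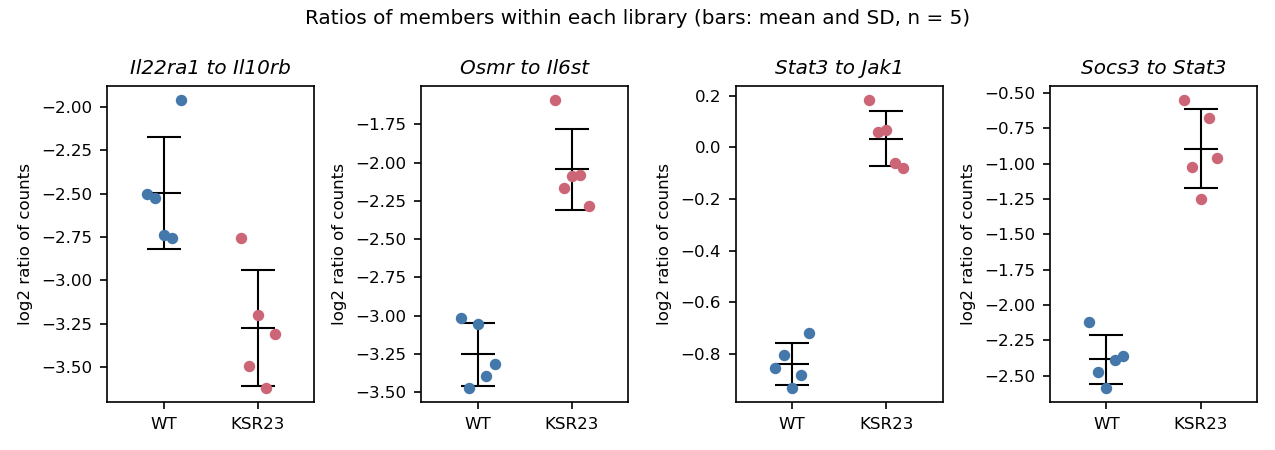
Log2 ratios of the counts of member pairs within each library (y axes, which differ in range), by group, with points for mice and bars for mean and SD (n = 5). The Socs3 to Stat3 ratio moved from -2.38 to -0.89 and the Il22ra1 to Il10rb ratio from -2.50 to -3.28, the single ratio of the 4 that was lower in KSR23 mice.

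Bcl3 (chromosome 7, 19808462 to 19822770, minus strand), which encodes an IκB family protein that works in the nucleus with NF-κB, rose nearly as much as Socs3. It was at 4.45, 5.08, 4.60, 2.84 and 3.65 CPM in the WT group and at 21.2, 15.9, 17.7, 22.8 and 21.3 CPM in the KSR23 mice. All KSR23 mice were far above the highest WT mouse. Its log2 FC was 2.27 (SE 0.15, adjusted p = 1.75e-09), a 4.81-fold rise. The order of the KSR23 mice differed from that for Socs3, with replicates 4 and 5 as high as replicate 1. The antisense gene Gm16175 covers 161 exon bases of Bcl3, and its reads cannot be told apart from those of Bcl3 here.

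Pim1 (chromosome 17, 29490753 to 29496112, plus strand), which encodes a kinase that favours survival and growth, was the least abundant member. Its counts were 8, 18, 6, 15 and 15 in the WT libraries and 42, 30, 20, 54 and 47 in the KSR23 libraries. In CPM the WT mice were at 0.280, 0.618, 0.211, 0.484 and 0.558 and the KSR23 mice at 1.06, 0.888, 1.12, 1.34 and 0.839. The groups did not overlap, but the gap between KSR23 replicate 5 and WT replicate 2 was small, and counts this low leave a wide error. Pim1 had a log2 FC of 1.27 (SE 0.31, adjusted p = 0.00473), with an unadjusted 95% interval from 0.62 to 1.92. The antisense gene Gm26885 covers 488 of its exon bases, with reads that cannot be told apart. In the same kinase family, the members Pim2 (0.12, adjusted p = 0.515) and Pim3 (0.44, adjusted p = 0.0822) did not pass.

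The levels of different members can be compared per length, as CPM per kb of the longest coding transcript. The orders below hold for this length only, because reads in other exons can also count. For Il10rb this transcript has 1850 bases and all annotated exons 3808, for Jak1 4906 and 7227, and for Socs3 2552 and 2891. The place of Il10rb above Jak1 and Socs3 thus depends on the length chosen. In WT mice the order of mean levels was Il10rb (21.1 CPM per kb), Jak1 (19.3), Stat3 (8.78), Il6st (5.00), Socs3 (3.99), Il22ra1 (2.73), Tyk2 (2.43), Bcl3 (2.23), Osmr (0.835) and Pim1 (0.159). The ranges over mice overlapped for the neighbours Il10rb and Jak1, and for each neighbouring pair from Il6st down to Bcl3, so these orders do not hold beyond the spread. In KSR23 mice the order was Il10rb (26.3), Socs3 (25.0), Jak1 (22.9), Stat3 (19.1), Bcl3 (10.7), Il6st (5.92), Tyk2 (2.94), Osmr (2.31), Il22ra1 (2.01) and Pim1 (0.389). There the ranges of neighbours overlapped among Il10rb, Socs3, Jak1 and Stat3, and among Tyk2, Osmr and Il22ra1. Socs3 lay below the range of Stat3 in every WT mouse and overlapped it in KSR23 mice, and Bcl3 overlapped Tyk2 in WT mice and lay above it in every KSR23 mouse.

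**Figure D4:**
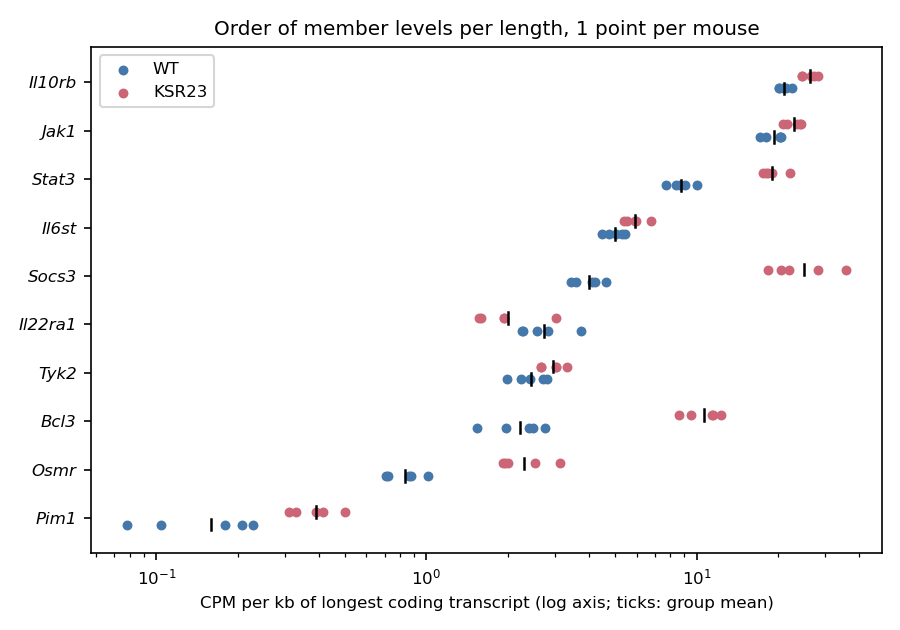
Level of each member per length in each mouse, in CPM per kb of the longest coding transcript on a log axis, with ticks at the group means. By this length, the members in WT mice span from 0.159 (Pim1) to 21.1 (Il10rb), and in KSR23 mice Socs3 at 25.0 lies beside Il10rb at 26.3. The order depends on the length chosen.

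Myeloid markers moved with the group, and their sum varied among the KSR23 mice at 419.9, 480.1, 609, 436 and 269 CPM in replicates 1 to 5. KSR23 replicate 5 lay within the WT range of 221 to 297 CPM for this sum. Cd68, S100a8 and S100a9 nonetheless had all 5 KSR23 mice above the WT range, replicate 5 included, while Csf1r, Itgam, Lyz2 and the macrophage gene Emr1 overlapped between the groups. Duct marker sums did not overlap between the groups. The part of myeloid and duct cells in the member values was not tested.

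At the top of the pathway, Il22 was close to undetected in the organ. Il22 had 1, 0, 0, 0 and 0 counts in the WT libraries and 1, 2, 2, 2 and 3 in the KSR23 libraries, at or under the floor of 3 counts in each, so no fold is given. Il19, Il20, Il24, Ifnl2, Ifnl3 and Il22ra2, the soluble decoy for IL-22, were at 0 counts in all 10 libraries, which allows up to 3 counts in each, or 0.0519 to 0.179 CPM. Il23a, which encodes the p19 subunit of IL-23 and is part of the cassette, had 6, 4, 9, 6 and 1 counts in WT and 48, 35, 21, 43 and 48 counts in KSR23 libraries. Its CPM were 0.179 ± 0.102 and 1.07 ± 0.14 (SD, n = 5 each) without overlap, and it was under the low-count filter. Il12b, which encodes the p40 subunit, had 0, 7, 1, 2 and 0 counts in WT and 13, 3, 3, 9 and 7 counts in KSR23 libraries, and the groups overlapped. With no low-count filter 1 of the 2 subunit genes was called higher. Both were at low levels in the pancreas of all 10 mice.

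Of the 12 other ligand and receptor genes of the IL-10 and IL-22 family, 3 were tested, 2 rose and none fell, with a median log2 FC of 0.75. By comparison, 16.2% of all genes tested were called higher and 14.8% lower. Without both WT replicates 1 and 2, 1 of these 3 genes rose. Il10ra, the chain that joins Il10rb to receive IL-10 on blood cells, rose from 1.52 ± 0.63 to 4.33 ± 1.97 CPM (log2 FC 1.50, adjusted p = 0.00108), with overlap of the groups at KSR23 replicate 2. Ifnlr1, the chain that joins Il10rb to receive type III interferons on epithelia, rose from 0.951 ± 0.261 to 1.59 ± 0.15 CPM (log2 FC 0.75, adjusted p = 0.0242). The call of Ifnlr1 was lost without WT replicate 2, WT replicate 4 or KSR23 replicate 1, with adjusted p of 0.0599, 0.0645 and 0.0571. Of the tested chains that pair with Il10rb, Il22ra1 thus had the single negative log2 FC.

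Of the 15 other ligand and receptor genes of the gp130 family 11 were tested, 1 rose, 3 fell and 7 did not pass, with a median log2 FC of 0.30. Over all genes 16.2% were called higher and 14.8% lower. With library totals alone, 2 of the family rose and 3 fell, and without both WT replicates 1 and 2, 1 rose and 2 fell. Lifr, the chain that joins gp130 to receive LIF, fell from 49.4 ± 3.15 to 34.3 ± 5.18 CPM (log2 FC -0.53, adjusted p = 0.000285), without overlap of the groups. Lif itself rose from 1.06 ± 0.17 to 1.88 ± 0.31 CPM (log2 FC 0.82, adjusted p = 0.0088), and Ctf1, which encodes cardiotrophin, fell with a log2 FC of -0.49 (adjusted p = 0.0106). Lifr and Osmr, the alternative partners of gp130 for related ligands, thus changed in opposite directions. Osm, the ligand of Osmr, was at 0.445 ± 0.397 CPM in WT and 0.752 ± 0.205 CPM in KSR23 mice and did not pass (log2 FC 0.73, adjusted p = 0.21).

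Of the 8 other JAK and STAT genes, all tested, 4 rose and none fell, with a median log2 FC of 0.37. Of all genes tested, 16.2% were called higher and 14.8% lower. Jak3, the kinase of the common gamma chain receptors best known from lymphoid cells, rose most, from 10.6 ± 2.85 to 43.3 ± 4.48 CPM (SD, n = 5 each). Its levels were 13.7, 12.4, 7.58, 7.54 and 11.7 CPM in WT and 47.8, 38.8, 38.8, 43.5 and 47.7 CPM in KSR23 mice. The groups were far apart. Lymphoid markers moved in both directions with the group, and their part in the level of Jak3 was not tested. The log2 FC of Jak3 was 2.04 (SE 0.14, adjusted p = 5.58e-09). Stat2 (log2 FC 0.42, adjusted p = 0.0143) and Stat6 (log2 FC 0.33, adjusted p = 0.0076) also rose.

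The other regulators moved less than Socs3, and most did not pass. Of 15 SOCS, PIAS and phosphatase genes, all tested, 3 rose, 1 fell and 11 did not pass, with a median log2 FC of 0.04. Among all genes tested, 16.2% were called higher and 14.8% lower. Ptpn1, a phosphatase that acts on JAK2 and TYK2, rose from 22.5 ± 1.83 to 35.2 ± 1.69 CPM (log2 FC 0.64, adjusted p = 3.81e-06). Socs2, an inhibitor of growth hormone signalling, rose from 18.6 ± 1.35 to 25.9 ± 2.35 CPM (log2 FC 0.47, adjusted p = 0.000329). Ptpn6, the phosphatase SHP-1 of blood cells, rose with a log2 FC of 0.39 (adjusted p = 0.00941), and Ptpn11, which encodes SHP-2 and binds gp130, fell with a log2 FC of -0.36 (adjusted p = 0.00469). Socs1, the inhibitor best known from interferon signalling, did not pass (log2 FC 0.30, adjusted p = 0.251), nor did Cish (log2 FC -0.18, adjusted p = 0.176). No member of this list came near the log2 FC of 2.65 of Socs3.

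Of 24 other genes known to respond to STAT3, all tested, 16 rose, 1 fell and 7 did not pass, with a median log2 FC of 0.96, against 16.2% of all genes called higher. Without both WT replicates 1 and 2, 16 were called higher and 1 lower. Like the members, this and the other lists were chosen with results of these mice known. Their shares describe the lists and are no independent evidence of their direction. Lrg1, a secreted glycoprotein of the acute phase, rose most. Its levels were 5.71, 5.63, 1.93, 1.32 and 1.42 CPM in WT and 355, 123, 84.7, 294 and 171 CPM in KSR23 mice. WT replicates 1 and 2 were the highest WT mice for Lrg1, as for Reg3b, yet all WT mice were far below all KSR23 mice. Its log2 FC was 6.01 (SE 0.44, adjusted p = 8.92e-09), and without both WT replicates 1 and 2 it was 7.05.

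Junb, a subunit of the AP-1 factor, rose from 12.3 ± 1.46 to 64.7 ± 14.5 CPM (log2 FC 2.40, adjusted p = 1.93e-10). Timp1, an inhibitor of matrix proteases, rose from 2.36 ± 0.68 to 9.36 ± 1.97 CPM (3.99-fold, adjusted p = 2.92e-07). Batf, another AP-1 factor, rose from 1.70 ± 0.28 to 4.83 ± 0.85 CPM (log2 FC 1.51, adjusted p = 4.21e-06). These genes rose in every KSR23 mouse above every WT mouse, as did all 16 genes of the list that rose, against 10.7% of all genes tested. Nnmt, a methyltransferase of nicotinamide, fell with a log2 FC of -0.49 (adjusted p = 0.0147), a call that was lost with library totals alone and without WT replicate 3. Myc, which drives growth, was at 48.3 ± 6.39 CPM in WT and 48.7 ± 8.15 CPM in KSR23 mice (log2 FC 0.01, adjusted p = 0.942, unadjusted 95% interval from -0.21 to 0.24). Ccnd1, Hif1a, Vegfa and Tnfaip3 did not pass either. Over the 5 lists together, 61 of 74 genes were tested, 26 rose and 5 fell, which is the spread seen in the plot of the pathway lists. The shares over all genes tested were 16.2% higher and 14.8% lower.

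**Figure D5:**
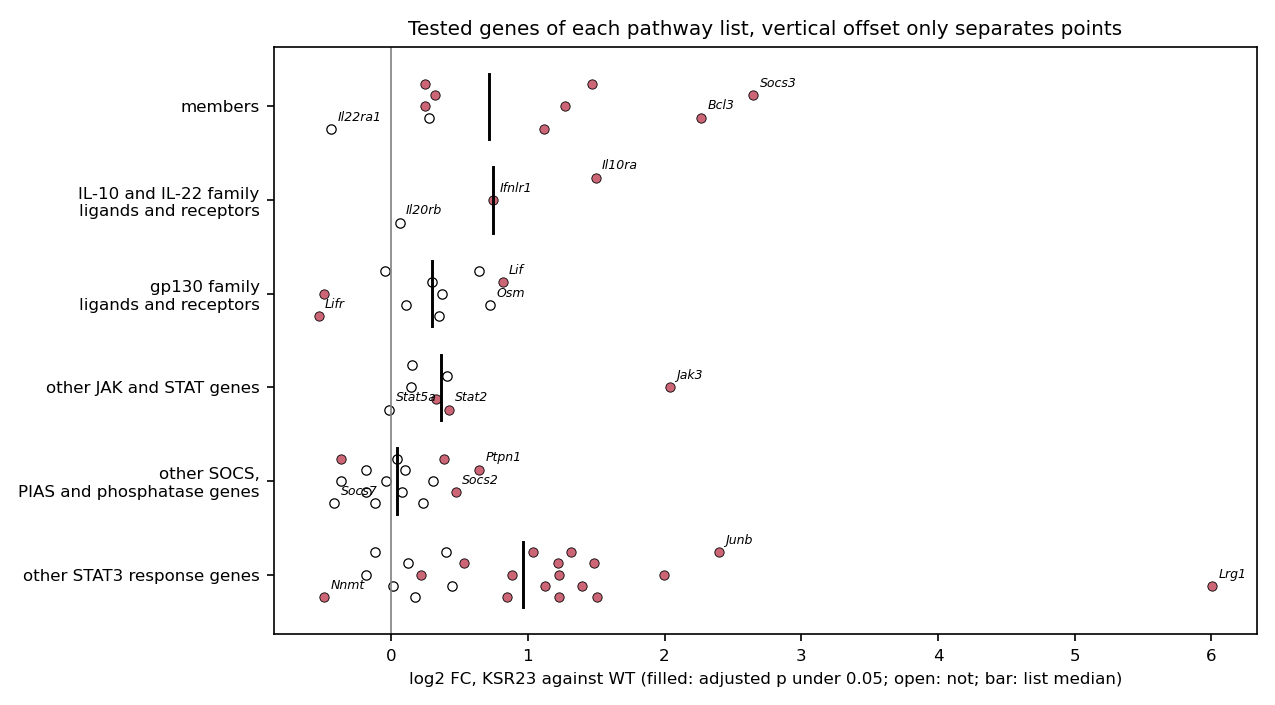
Log2 FC of tested genes (x axis) in the members and in 5 other lists of the pathway, with filled points for adjusted p under 0.05 and bars at the medians of all tested genes of a list, of which some are not drawn. The members and the other STAT3 response genes have medians of 0.72 and 0.96, and the SOCS, PIAS and phosphatase genes have a median of 0.04.

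The genes most like Stat3 over the 10 mice, by the root mean square difference of log2 CPM centred on each gene, were Lgmn, Irf9 and Tmem171, with differences of 0.107, 0.107 and 0.115. Lgmn went from 44.6 ± 2.71 to 94.5 ± 16.7 CPM, Irf9 from 9.42 ± 0.82 to 20.4 ± 1.94 CPM and Tmem171 from 3.13 ± 0.41 to 7.26 ± 1.09 CPM. The genes most like Socs3 were Junb, Elf3 and Ifitm1, with differences of 0.207, 0.218 and 0.258. Elf3 went from 8.01 ± 1.52 to 37.7 ± 8.31 CPM and Ifitm1 from 11.5 ± 1.24 to 91.0 ± 27.2 CPM. The measure spans both groups, so a gene chosen by it has to rise about as Stat3 or Socs3 did. The rises of these genes were thus set by the choice and are no separate result.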

How the data were processed

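Pancreas libraries of 5 WT and 5 KSR23 pups (P5) were analyzed, 1 per mouse as numbered in the labels, so p-values measure the spread between these samples. The authors primed the RNA with oligo-dT (SMART-Seq v4), aligned single-end reads of 75 bases to mm10 with TopHat2 2.1.0 and deposited raw counts per gene of uniquely aligned reads from HTSeq 0.6.1p1. Strand setting and annotation file are not given in the sources used here. No molecular identifiers were named, so PCR copies count as reads, and floors (3 counts, 0.0519 to 0.179 CPM) cover counting error only.

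A gene was tested if no library had fewer than 5 counts of it. After TMM scaling, groups were compared with the quasi-likelihood F test of edgeR 4.0.16 in R 4.3.3, with p-values adjusted by Benjamini-Hochberg over all tested genes. The procedure was also run on simulated counts in which few genes changed, with equal rises and falls. That run cannot check the scaling where 31.0% of genes are called, as here. SE is the size of the log2 FC divided by the square root of F. For single values and within-library ratios, a two-sided exact permutation test took every split of the mice, with 0.00794 as its smallest p. Likeness between genes used log2 CPM with a prior count of 2. Positions follow GENCODE M21 (GRCm38, also named mm10), and promoters follow RefSeq.

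The members and gene lists were chosen with earlier results of these data known. Named were all members, up to 4 called genes per list with the largest log2 FC, Il22, Il23a, Il12b, and the 3 genes most like Stat3 and Socs3. The values of some genes under this rule are not reported here. Nnmt, Reg3b, Osm, Socs1, Cish, Pim2, Pim3, Myc and further genes that did not pass were chosen after their values were seen. Alternatives were DESeq2 1.42.0, edgeR's likelihood ratio test, size factors by RLE, library totals with and without the 50 highest genes, other low-count filters, the replicate number as a block, each mouse left out in turn, and both WT replicates 1 and 2 left out.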

Additional observations from a re-analysis of the deposited data

Results flagged for a closer look

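In 5 of 74 groups of 5 mice tested among the named genes and ratios, 1 mouse lay far from the other 4 by Dixon's criterion (critical value 0.71), where chance alone gives about 1 in 20 groups, or 3.7 of 74. Il22ra1 was at 7.74 CPM in KSR23 replicate 1 and at 4.03 to 4.97 CPM in the other KSR23 mice, and whether Il22ra1 was called depended on this mouse. The log2 ratio of Osmr to Il6st was -1.59 in the same mouse and between -2.28 and -2.08 in the other KSR23 mice. Lif was at 2.40 CPM in KSR23 replicate 3, the smallest library, against 1.64 to 1.86 CPM. Tmem171 was at 3.84 CPM in WT replicate 5, and at 2.81 to 3.09 CPM in the other WT mice. Ifitm1 was at 13.6 CPM in WT replicate 1, while the other WT mice had 10.5 to 11.3 CPM.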

How the results depend on the processing

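Il10rb, Osmr, Stat3, Socs3, Bcl3 and Pim1 kept their direction and their call under all 19 settings, and of the members, the up to 4 called genes named per list and the genes most like Stat3 and Socs3, none changed direction under any of them. The other genes named were not followed through these settings. The log2 FC of Socs3 stayed between 2.48 and 2.75, that of Bcl3 between 2.15 and 2.43 and that of Pim1 between 1.10 and 1.44. The number of genes called lay between 3321 and 4652 and the number of members called higher between 6 and 9. With libraries scaled by their totals alone, 1164 genes were called lower, against 2049 with TMM, and the median log2 FC was 0.09 in place of -0.01. With 1 mouse left out, the number of members called lower ranged from 0 to 1, and the 1 was Il22ra1 without KSR23 replicate 1. Tyk2 was called with DESeq2 and with library totals alone, and without WT replicate 3 (adjusted p = 0.0402), KSR23 replicate 2 (0.0477) or KSR23 replicate 3 (0.0466). Its exact permutation p was 0.0794 in 6 of the fits with 1 mouse left out. Without both WT replicates 1 and 2, Il6st, Jak1, Ifnlr1, Ctf1, Stat2 and Ptpn6 no longer passed. With these 2 mice out, 3 of the other JAK and STAT genes and 2 of the other SOCS, PIAS and phosphatase genes rose. The cause of these changes was not tested. The WT and KSR23 mice share replicate numbers, and the labels do not say whether these numbers pair them. The paper calls the controls littermates. Deviations from the group means correlated between -0.11 and 0.07 for same-numbered mice, and 1 of 5 WT mice correlated best with its own number. These values show no pairing by number but cannot exclude shared litters. With the replicate block 3749 genes were called and 8 members were higher, with Il6st at an adjusted p of 0.0499. Depth limits Il22 and most ligand genes, which lay at or near 3 counts, and Pim1, with as few as 6 counts in a library.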
